A study of Mus musculus with 3 samples.

Results

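Mouse embryonic stem cells that aggregate into embryoid bodies (EBs) without leukemia inhibitory factor (LIF) pass from the pluripotent state to the first germ layers within days. The comparison described here sets EBs treated with C2 ceramide until day 4 against vehicle EBs on day 3, and asks which transcripts differed across the treated day. Its members were the genes with at least 10 estimated counts in at least 1 of these 2 libraries, 16979 of the 55487 genes in the deposited table. EBs were made from E14K cells, a feeder-independent wild-type (WT) line. Cells aggregated in hanging drops in serum-containing medium free of LIF and then grew in suspension. The DMSO day 3 library came from vehicle EBs on day 3, and the C2 ceramide day 4 library came from EBs given 30 μM C2 ceramide, dissolved in DMSO, from the start of day 3. A DMSO day 4 library from vehicle EBs of the same age as the treated EBs is shown beside them. The labels call the vehicle libraries controls, and the column names of the table call them DMSO. The hour on day 3 at which RNA was taken is not given in the sources used here.

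Ceramide is the lipid from which sphingomyelin and glycosphingolipids are built, and C2 ceramide is a short-chain form that enters cells. In an EB, naive pluripotent cells first become formative epiblast-like cells. Some then switch on genes of the primitive streak, from which mesoderm and endoderm form, while cells that escape streak signals can take a neural path.

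With a single library per condition, only the size of a difference can be given, and no test was made. The estimated counts summed to 35290094 with C2 ceramide, against 33619197 on DMSO day 3 and 35078820 on DMSO day 4. Transcripts of the mitochondrial genome made up between 0.651% and 0.768% of the counts. Levels are in TPM, the share of all transcripts after correction for transcript length. Higher and lower stand for a TPM ratio above 2 and below 0.5. The interval beside a log2 ratio reflects counting error at the 95% level and nothing else, and PCR copies of 1 molecule were counted separately. Since these are bulk RNA samples, fewer cells of a type and less RNA per cell cannot be told apart.

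Pluripotency markers were abundant in both libraries compared. Pou5f1, the core pluripotency factor, was at 911 TPM with C2 ceramide, against 949 TPM on day 3 and 628 TPM on day 4 of DMSO. Where 3 values follow each other from here on, they are for day 3 of DMSO, day 4 of DMSO and day 4 of C2 ceramide, and Sox2, the partner of Pou5f1, was at 102, 51.2 and 120 TPM. Blood markers and some markers of visceral endoderm were at low levels. The blood marker genes Tal1, Gata1 and Hbb-bh1 were at 0.244, 1.35 and 2.19 TPM with C2 ceramide, and of the visceral endoderm markers Afp was at 0.254, Ttr at 0.185 and Amn at 1.66 TPM, while Apoa1 did not reach 10 counts.

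Many genes differed by more than 2-fold between the C2 ceramide and DMSO day 3 libraries, but the spread between cultures was not measured. Of the 16979 genes, 1809 (10.7%) were higher and 1494 (8.8%) were lower with C2 ceramide than on DMSO day 3. The other 13676 (80.5%) lay within 2-fold. Counts of list members given below are to be read beside these shares. On DMSO day 4, 1717 of the same genes (10.1%) were higher and 1666 (9.81%) were lower than on DMSO day 3. The count of higher genes for DMSO day 4 is partial, because genes detected only on DMSO day 4 are not among the members, and 17655 genes had at least 10 counts in at least 1 of the 3 libraries. The median log2 ratio was 0.03 for both comparisons, and the median absolute log2 ratio was 0.34 for both. These comparisons share the DMSO day 3 library, so their values are set side by side and were not tested against each other.

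Many of the differing genes had few counts. For 918 higher and 677 lower genes, the whole counting interval lay past 2-fold. Among the 8063 genes with at least 10 TPM in the higher of the 2 libraries, 179 (2.22%) were higher and 108 (1.34%) were lower with C2 ceramide. For DMSO day 4 over DMSO day 3, the same 8063 genes held 148 higher and 133 lower ones. Of the members, 304 had no count on DMSO day 3 and 264 had none with C2 ceramide.

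**Figure D1:**
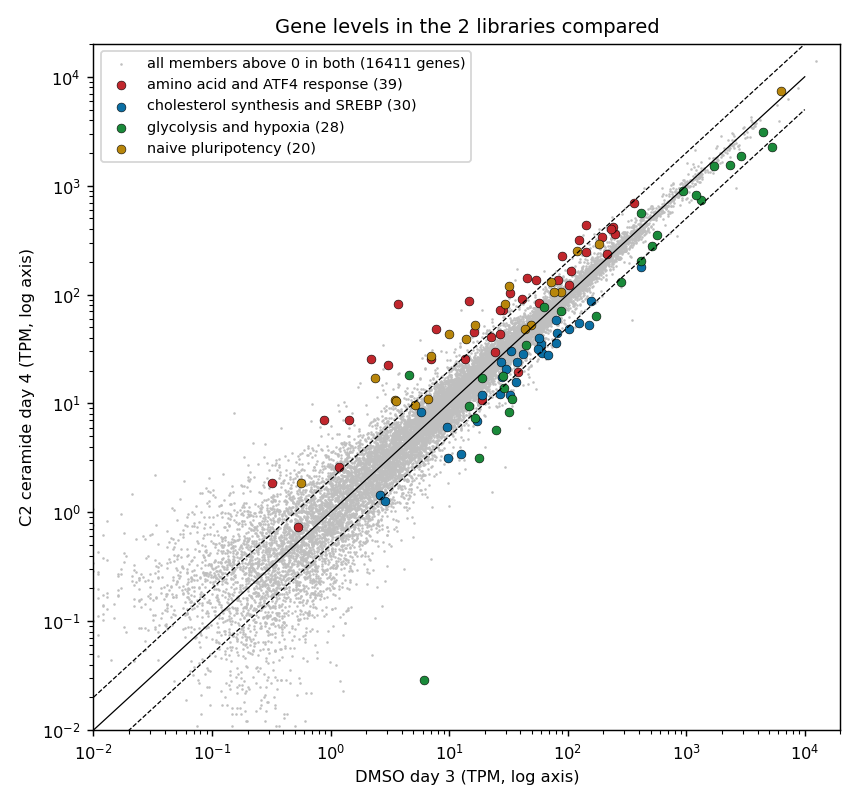
Level of each gene on DMSO day 3 (horizontal, TPM, log axis) and with C2 ceramide on day 4 (vertical, TPM, log axis), 1 library each. Grey points are the 16411 genes above 0 TPM in both libraries, though a few below 0.01 TPM fall outside the axes, the solid line marks equal levels and the dashed lines mark 2-fold. Genes of amino acid supply and ATF4 and of naive pluripotency lie mostly on or above the solid line, and genes of cholesterol synthesis and of glycolysis and hypoxia mostly below it.

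A large group on the higher side was the amino acid response, in which the transcription factor ATF4 switches on genes for amino acid synthesis, transport and tRNA charging. Of 39 genes in this group, 20 were higher with C2 ceramide than on DMSO day 3 and none was lower, against 10.7% and 8.8% of all members. The median log2 ratio was 1.13. For the vehicle day it was 0.02, with 3 genes higher and 1 lower. The group summed to 5712 TPM with C2 ceramide, against 3013 TPM on DMSO day 3 and 2926 TPM a day later.

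Large ratios were found for Chac1 and for regulators of the response. Chac1, which encodes a glutathione-degrading enzyme, was at 3.74, 9.79 and 81.6 TPM, and its log2 ratio of 4.45 over DMSO day 3 (interval 4.22 to 4.69) was the largest of any protein-coding gene with at least 10 TPM in the higher library. Jdp2, a leucine zipper repressor, was at 2.21, 4.70 and 25.9 TPM (log2 ratio 3.55, interval 3.23 to 3.88). Atf3, a stress-induced factor, was at 3.08, 6.04 and 22.4 TPM (log2 ratio 2.86). On DMSO day 4 the log2 ratios of these genes were 1.39, 1.09 and 0.97, so that Chac1 and Jdp2 passed 2-fold there too. Trib3, a pseudokinase that feeds back on ATF4, was at 14.7, 16.1 and 87.0 TPM, and Nupr1, a small stress-induced regulator, was at 7.71, 7.31 and 48.3 TPM. Their log2 ratios over DMSO day 3 were 2.57 and 2.65 with C2 ceramide, whereas on DMSO day 4 they were 0.13 and −0.08. Atf4 itself was at 124, 143 and 315 TPM (log2 ratio 1.34).

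Enzymes and transporters that supply amino acids followed with smaller ratios. Asns, which makes asparagine, was at 143, 195 and 431 TPM (log2 ratio 1.59, interval 1.55 to 1.63). Psat1, of serine synthesis, was at 89.1, 102.5 and 224 TPM, and Mthfd2, a mitochondrial folate enzyme, was at 45.7, 46.2 and 141 TPM. Phgdh, the first enzyme of serine synthesis, was within 2-fold at 250, 209 and 359 TPM. Slc7a5, a carrier of large neutral amino acids, was at 54.6, 54.2 and 137 TPM. Slc7a3, a carrier of cationic amino acids, was at 214, 57.0 and 237 TPM. Of all 39 genes, 2 had a ratio below 1, Cbs of cysteine synthesis at 19.1, 12.9 and 10.7 TPM and Ddit4, an mTOR inhibitor, at 37.9, 31.9 and 19.3 TPM. The 33 genes that the gene table annotates to tRNA aminoacylation were all within 2-fold, with a median log2 ratio of 0.20.

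The promoters of some of these genes contain the C/EBP-ATF response element, to which ATF4 binds as a dimer with a C/EBP factor. It was searched as TGATGNAAN on both strands in RefSeq promoters of GRCm38.p6, which span 250 bases before to 50 bases after each gene start. Of 33 genes in the group with a promoter in the table, 11 (33.3%) held a match, compared with 1215 of 27025 genes (4.50%) overall. Among higher genes of the group, 7 of 18 (38.9%) held one, and among those within 2-fold, 4 of 15 (26.7%) did. A match describes the sequence and does not show binding. The group was put together as genes of the ATF4 response, so its share against all genes describes the list and not the C2 ceramide library. The following stretches of 80 bases are shown for 6 genes with large ratios, in the direction of the gene, with the match in capitals. They are from chr2:119351012-119351091 (plus strand, Chac1), chr12:85599336-85599415 (plus strand, Jdp2), chr1:191183401-191183480 (minus strand, Atf3), chr7:126625538-126625617 (minus strand, Nupr1), chr19:27216783-27216862 (plus strand, Vldlr) and chr6:7693210-7693289 (minus strand, Asns).
Chac1: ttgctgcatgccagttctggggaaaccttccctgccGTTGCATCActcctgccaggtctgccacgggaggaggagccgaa
Jdp2: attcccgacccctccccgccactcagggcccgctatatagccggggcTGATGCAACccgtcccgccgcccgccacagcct
Atf3: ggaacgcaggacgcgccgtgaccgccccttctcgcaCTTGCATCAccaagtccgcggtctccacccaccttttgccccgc
Nupr1: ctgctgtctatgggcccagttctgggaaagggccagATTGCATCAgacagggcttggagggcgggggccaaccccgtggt
Vldlr: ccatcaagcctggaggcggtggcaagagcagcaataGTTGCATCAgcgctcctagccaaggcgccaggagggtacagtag
Asns: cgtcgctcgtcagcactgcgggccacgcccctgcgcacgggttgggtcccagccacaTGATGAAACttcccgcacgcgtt
Vldlr, which encodes a lipoprotein receptor and carries the same element, had 94, 578 and 703 counts, so its level was high in both day 4 libraries.

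Few genes of other stress lists passed 2-fold. Among all members, 80.5% lay within 2-fold. Of genes with at least 10 TPM in the higher library, 2.22% were higher and 1.34% were lower. Of 21 genes of ER chaperones and the unfolded protein response, 1 was higher and none was lower, and the median log2 ratio was −0.02. The higher gene was Herpud1, of ER-associated degradation, at 16.3, 18.5 and 54.8 TPM (log2 ratio 1.75). Hspa5, the main ER chaperone, was at 481, 508 and 453 TPM. Among 12 heat shock genes, 1 was higher, the small heat shock protein gene Hspb1, at 442, 385 and 951 TPM. None of 14 genes of oxidative stress and metallothioneins passed 2-fold in either direction. Of 24 p53 targets and apoptosis genes, 2 were higher, Bcl2 at 0.435, 1.21 and 3.01 TPM and Hrk at 0.725, 0.258 and 2.60 TPM, which encode an inhibitor and a promoter of apoptosis. Of 26 genes of autophagy and the lysosome, 2 were higher and 1, Bnip3, was lower. The higher ones were Tfeb, a factor that drives lysosomal genes, at 2.75, 1.97 and 5.73 TPM and Cd63, a membrane protein of late endosomes, at 307, 418 and 619 TPM.

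On the lower side, genes of cholesterol synthesis were below DMSO day 3. The factor SREBP turns these genes on when sterols are scarce. Of 30 genes, 14 were lower with C2 ceramide and none was higher. The median log2 ratio was −0.87. No gene of the group passed 2-fold on DMSO day 4, where the median was −0.42, so the vehicle day had a difference of the same sign and smaller size. Hmgcs1, which makes HMG-CoA, was at 151, 100.3 and 52.9 TPM (log2 ratio −1.51, interval −1.56 to −1.46). Fdps, which makes farnesyl diphosphate, was at 414, 286 and 178 TPM. For both genes the DMSO day 4 level lay between the others. The lowest ratio was that of Tm7sf2, a sterol reductase gene, at 12.6, 9.05 and 3.44 TPM (log2 ratio −1.87, interval −2.18 to −1.57). Tm7sf2 overlaps Vps51 on the same strand, which had 1975, 2635 and 2665 counts, so its share of reads is uncertain. Hsd17b7, which acts late in the pathway, was the 1 gene with a TPM ratio above 1, at 5.84, 10.1 and 8.29 TPM. It had 417, 704 and 438 counts, and its log2 ratio by counts per library total was 0.0009, so a rise is uncertain.

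Genes of glycolysis and of the response to low oxygen formed the other lower group. Hypoxia-inducible factor (HIF) switches on glycolytic enzymes and regulators such as Egln3 when oxygen falls. Among 29 genes, 12 were lower with C2 ceramide than on DMSO day 3 and 1 was higher. The median log2 ratio was −0.67. For the vehicle day it was −0.17, with 1 gene higher and 1 lower. Together these genes reached 14682 TPM with C2 ceramide, against 22927 TPM on DMSO day 3 and 22749 TPM a day later.

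Car9, a carbonic anhydrase gene induced by HIF, had 19, 12 and 0 counts, at least 6.65-fold lower than DMSO day 3 against a floor of 3 counts. Bnip3, a mitophagy gene and HIF target counted in the list of autophagy, was at 347, 215 and 58.5 TPM (log2 ratio −2.57, interval −2.64 to −2.50). Egln3 and Egln1, prolyl hydroxylases that mark HIF for destruction, had 1274, 1180 and 234 counts and 3188, 3810 and 1065 counts. Adm, the gene of the vasodilator adrenomedullin, had 200, 147 and 1 counts, a log2 ratio of −7.72 (interval −13.03 to −5.22). Ndufa4l2, a mitochondrial protein gene outside the list, was at 22.9, 21.2 and 1.55 TPM, and its log2 ratio of −3.89 (interval −4.46 to −3.36) was the second smallest among protein-coding genes with at least 10 TPM in the higher library. Ndufa4l2 overlaps Shmt2 on the other strand, which had 8277, 9212 and 14549 counts. The antisense gene Gm45507, which overlaps Bnip3 on the other strand, had 67.5, 43.2 and 8.05 counts. In a library without strand, overlapping reads of either pair cannot be told apart.

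Enzymes of glycolysis lay on both sides of the 2-fold limit. Ldha, which makes lactate, was at 5271, 6964 and 2245 TPM (log2 ratio −1.23). Aldoc, an aldolase gene, was at 32.2, 17.9 and 8.28 TPM, and Pkm, which makes pyruvate, was within 2-fold at 4449, 4116 and 3141 TPM. The glucose transporter genes Slc2a1 and Slc2a3 were within 2-fold, with log2 ratios of −0.06 and 0.44. Hif1a itself was at 63.5, 62.8 and 76.8 TPM. The single higher gene was Vegfa, the angiogenic growth factor, at 4.62, 12.1 and 18.2 TPM (log2 ratio 1.98, interval 1.81 to 2.14). Vegfa was higher in both day 4 libraries.

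The core of the hypoxia response element, ACGTGC, was chosen as a motif after these values were seen. On either strand it was present in the promoters of 13 of 27 genes of the list (48.1%) and of 1806 of 27025 genes (6.68%) overall. The list was put together with genes of the hypoxia response, so these shares describe the list and not the C2 ceramide library. Among lower genes of the list it was found in 6 of 11 (54.5%), and among those within 2-fold in 7 of 15 (46.7%), while Vegfa had none in its window. The 4 stretches that follow show lower genes, from chr8:124949279-124949358 (minus strand, Egln1), chr7:46845724-46845803 (plus strand, Ldha), chr11:120948987-120949066 (plus strand, Slc16a3) and chr8:46000021-46000100 (minus strand, Ankrd37), with matches in capitals.
Egln1: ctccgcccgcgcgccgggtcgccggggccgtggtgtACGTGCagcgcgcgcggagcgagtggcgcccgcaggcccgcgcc
Ldha: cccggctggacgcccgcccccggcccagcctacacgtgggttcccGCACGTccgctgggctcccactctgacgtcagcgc
Slc16a3: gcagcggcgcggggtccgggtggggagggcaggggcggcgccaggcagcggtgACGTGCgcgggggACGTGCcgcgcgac
Ankrd37: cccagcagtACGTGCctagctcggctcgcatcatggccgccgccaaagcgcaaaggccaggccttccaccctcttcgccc
Slc16a3, a lactate exporter gene, was at 282, 217 and 131 TPM, and Ankrd37, an ankyrin repeat gene, was at 24.8, 17.9 and 5.67 TPM.

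**Figure D2:**
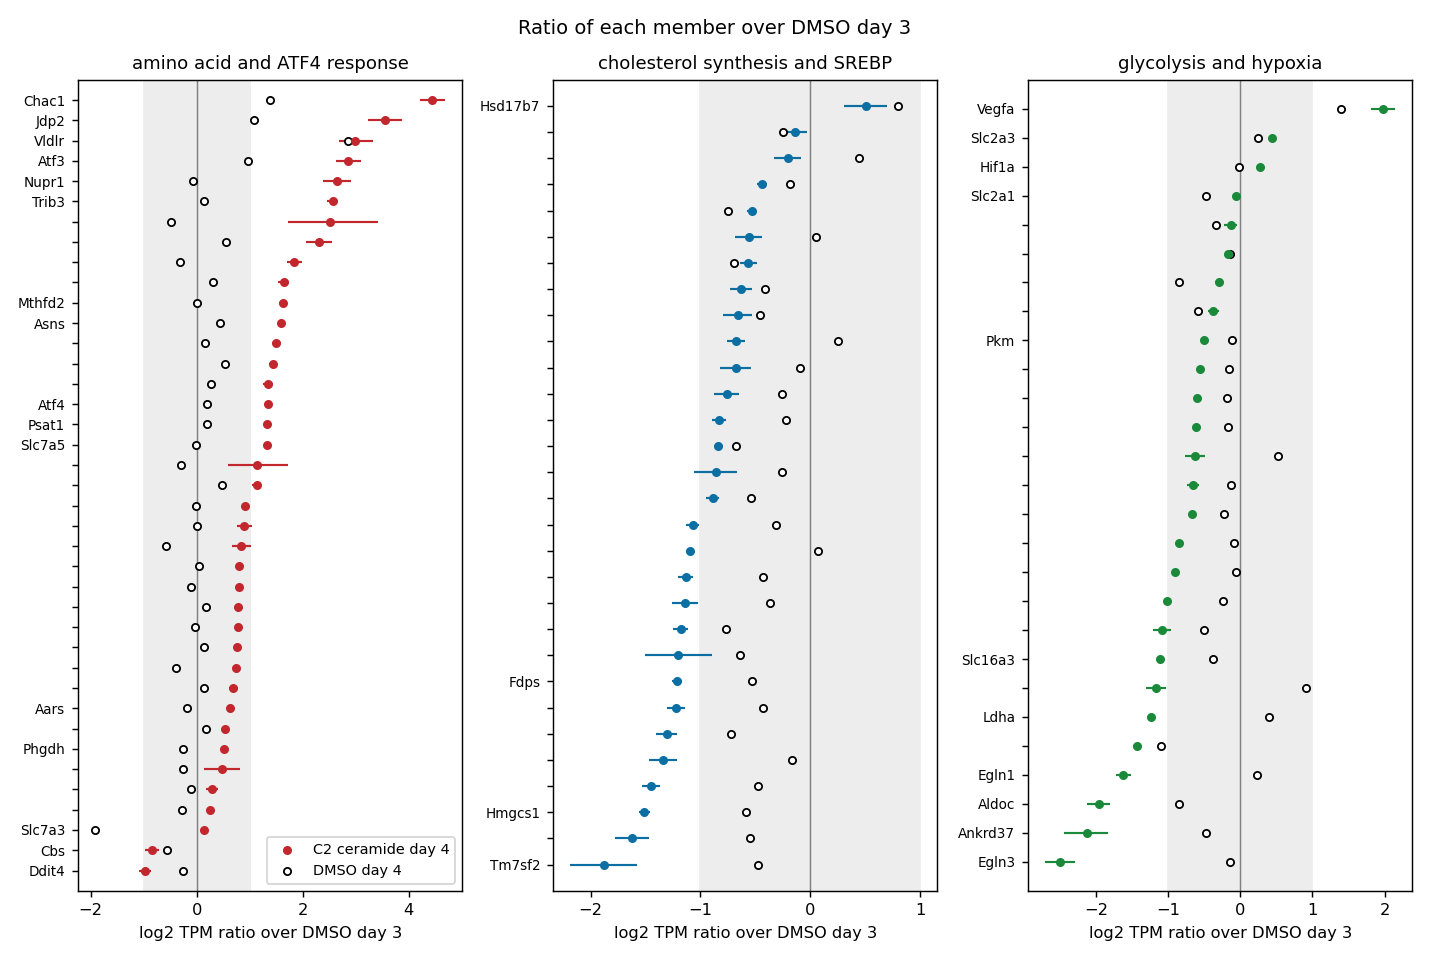
Log2 TPM ratio over DMSO day 3 of each gene in 3 lists, with C2 ceramide on day 4 (filled points, bars are 95% counting intervals) and with DMSO on day 4 (open points, 1 library each). The grey band marks ratios within 2-fold, the rows named are genes given in the text, and genes with 3 counts or fewer in either library compared (Adm and Car9) are not drawn. Chac1 reaches 4.45 in the amino acid list, Tm7sf2 reaches −1.87 in the cholesterol list and Egln3 reaches −2.49 in the glycolysis list.

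Naive pluripotency genes, which mark the ground state before the epiblast forms, were higher with C2 ceramide than on day 3. Of 20 genes, 11 were higher and none was lower. The median log2 ratio was 1.28. On DMSO day 4, all 20 were within 2-fold of DMSO day 3, with a median of −0.17. Nr0b1, a nuclear receptor gene of embryonic stem cells, was at 32.2, 18.7 and 119 TPM (log2 ratio 1.89, interval 1.81 to 1.98). Tcl1, a kinase coactivator gene, was at 9.99, 8.83 and 43.1 TPM, and Tbx3, a T-box factor of the naive state, was at 6.98, 8.13 and 27.3 TPM. Klf4 was at 3.53, 3.33 and 10.8 TPM and Zfp42 at 120, 78.2 and 252 TPM. Not every naive gene differed by as much. Esrrb, Nanog and Dppa5a were within 2-fold, with log2 ratios of 0.73, 0.27 and 0.21. Gbx2, a homeobox gene counted in both the naive and the neural list, was at 2.37, 2.75 and 17.2 TPM, while D130058E05Rik on the opposite strand had 167, 111 and 356 counts.

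Among 24 genes of the formative and general epiblast, 3 were lower and none was higher, at a median log2 ratio of −0.29. The vehicle day gave 2 higher and 7 lower genes and a median of −0.57. Fgf5, the classical marker of the formative epiblast, was at 176, 253 and 86.6 TPM (log2 ratio −1.03, interval −1.08 to −0.98). Trh, a hormone precursor gene expressed in this state, was at 2626, 2221 and 952 TPM. Dnmt3b, a de novo DNA methyltransferase gene, was at 736, 383 and 365 TPM, so both day 4 libraries were low. Utf1, a chromatin factor gene of pluripotent cells, was at 1266, 362 and 872 TPM and stood nearer to DMSO day 3 with C2 ceramide.

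Primitive streak genes split into those above and those below DMSO day 3. Of 20 genes, 8 were higher and 3 were lower with C2 ceramide, at a median log2 ratio of −0.14. For the vehicle day the median was 2.86, with 15 genes higher and none lower. The summed level of the list was 648, 1880 and 394 TPM. T, which encodes Brachyury, was at 3.39, 110 and 9.47 TPM (log2 ratio 1.48, interval 1.19 to 1.78). Evx1, a homeobox gene of the posterior streak, was at 0.208, 42.5 and 2.32 TPM, while its antisense neighbour Evx1os had 25, 762 and 28 counts. Mixl1, another homeobox gene of the streak, was at 3.19, 134 and 8.17 TPM. These genes were above their day 3 level with C2 ceramide and far below DMSO day 4.

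The 3 lower streak genes were Eomes, Wnt8a and Cdx1. Eomes, a T-box factor of mesoderm and endoderm, was at 25.2, 84.7 and 9.24 TPM (log2 ratio −1.45, interval −1.56 to −1.33). Wnt8a, a Wnt ligand gene of the posterior epiblast, was at 10.6, 13.2 and 3.15 TPM (log2 ratio −1.75). Wnt3, the ligand that starts streak formation, was at 4.34, 18.4 and 3.96 TPM, and its interval of −0.35 to 0.08 around a log2 ratio of −0.13 includes 0. Fgf8 was at 54.0, 351 and 37.1 TPM and Nodal had 2977, 2612 and 1999 counts, both within 2-fold of day 3 with C2 ceramide. Among 15 genes of the Nodal pathway, 2 were higher and 1 was lower, near the 10.7% and 8.8% of all members. Of 17 Wnt targets, 4 were higher and 2 were lower, and the median was −0.38 with C2 ceramide and 1.10 for the vehicle day.

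In the mesoderm lists, many single genes were above DMSO day 3 at low levels, while summed levels did not move as one. Nascent and paraxial mesoderm summed to 150, 388 and 113 TPM, and lateral and cardiac mesoderm to 24.5, 231 and 40.3 TPM. Of 17 measured genes of nascent and paraxial mesoderm, out of 20 listed, 10 were higher and 2 were lower. Their median log2 ratio was 1.30, against 4.35 on DMSO day 4, or 4.06 with genes at 0 counts set to their bound. Aplnr, the apelin receptor gene, was at 0.394, 64.9 and 1.86 TPM, and Dll1, a Notch ligand gene, was at 0.973, 19.8 and 2.65 TPM. Mesp2, of somite formation, had 24, 1195 and 0 counts, at least 8.40-fold lower than DMSO day 3 against a floor of 3 counts. In lateral and cardiac mesoderm, 8 of 16 genes were higher and 2 were lower, with a median of 0.83 against 3.37. Bmp2, a ligand gene of cardiac mesoderm, was at 0.144, 8.49 and 0.511 TPM (log2 ratio 1.83, interval 0.92 to 2.84), and Gata6 was at 0.087, 37.7 and 0.775 TPM.

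For definitive endoderm and the node, 7 of 17 genes were higher and 2 were lower. Their median log2 ratio was −0.04, or 0.10 by counts per library total and 0.09 with TMM factors, against 3.43 on DMSO day 4, or 3.33 with genes at 0 counts set to their bound. Sox17, an endoderm factor, was at 0.515, 254 and 2.26 TPM (log2 ratio 2.13, interval 1.41 to 2.93). Foxa2, a forkhead factor of the anterior streak, was below day 3 at 4.60, 31.9 and 1.45 TPM (log2 ratio −1.67, interval −2.06 to −1.29). Cyp26a1, which degrades retinoic acid, was among the 15 protein-coding genes with the largest ratios, at 1.29, 444 and 10.3 TPM, although its level with C2 ceramide was low beside DMSO day 4. Members of the endoderm list thus lay on both sides of their day 3 level.

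Several genes of the BMP family were above day 3. Of 15 BMP pathway genes, 6 were higher and none was lower, with a median of 0.81 against 1.95 on DMSO day 4. Id1, a direct BMP target, was at 63.4, 298 and 165 TPM (log2 ratio 1.38). Id2, of the same family, was at 33.7, 29.7 and 99.7 TPM and was highest of the 3 libraries with C2 ceramide. Msx1 and Smad6, both BMP targets, were within 2-fold of day 3, at 6.02, 66.5 and 9.38 TPM and at 1.97, 7.61 and 1.82 TPM. Of 16 Notch pathway genes, 4 were higher and 1 was lower with C2 ceramide, and 10 were higher on DMSO day 4. Among all members, 10.7% were higher and 8.8% were lower with C2 ceramide. Among 20 FGF and ERK targets, 1 was higher, Dusp5, and 2 were lower, Fgf5 and Ier3.

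**Figure D3:**
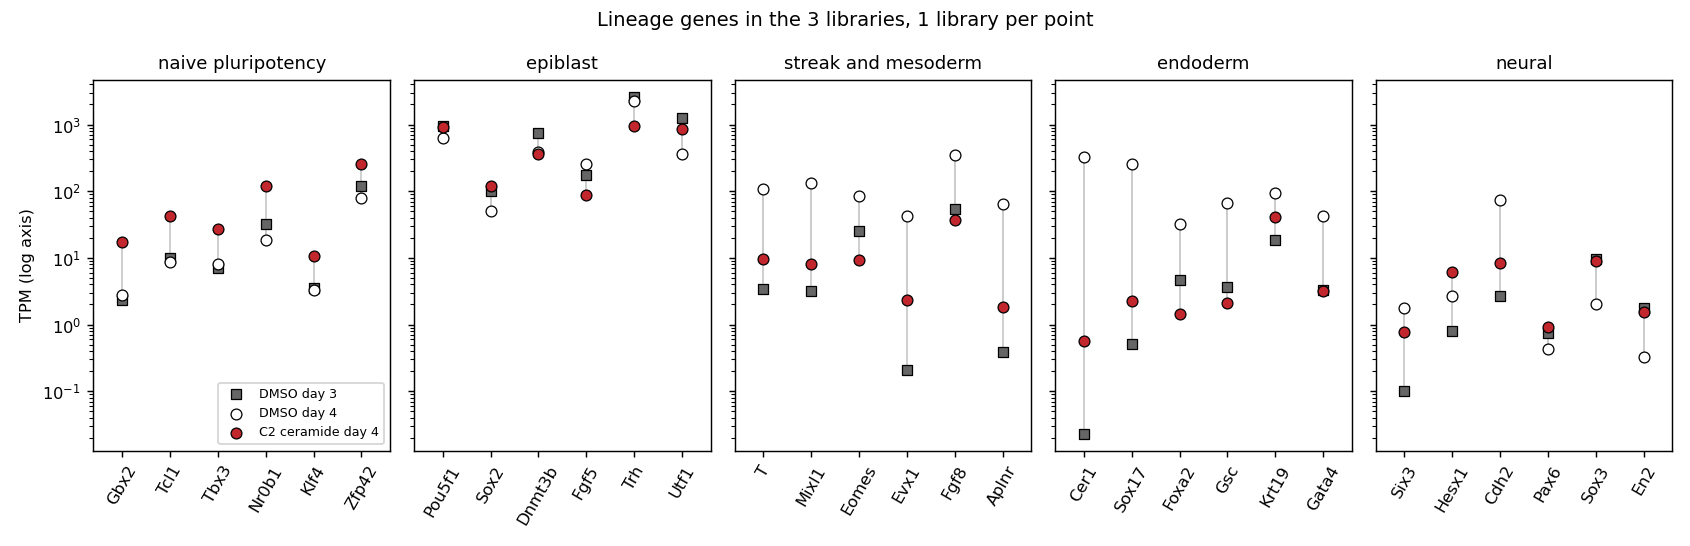
Level in TPM (log axis) of genes of 5 groups in the 3 libraries, with 1 point per library and no error bars because there is 1 library per condition. Naive genes are highest with C2 ceramide, and T, Mixl1, Evx1, Aplnr, Cer1 and Sox17 with C2 ceramide lie above DMSO day 3 and far below DMSO day 4.

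Many but not all neural genes were above DMSO day 3, from a low base. In the list of neuroectoderm and neural progenitors, 12 of 24 genes were higher and 1 was lower, at a median log2 ratio of 1.07. The vehicle day gave 7 higher and 5 lower genes and a median of 0.03. Sox1, a SOX factor of the neural plate, had 0, 0 and 66 counts, or 0.524 TPM with C2 ceramide, at least 21.0-fold higher than DMSO day 3 against a floor of 3 counts. Hesx1, a homeobox gene of the anterior neural plate, was at 0.811, 2.72 and 6.04 TPM (log2 ratio 2.90, interval 2.14 to 3.75), and Six3, of the forebrain, was at 0.101, 1.78 and 0.785 TPM. Pax6 was at 0.738, 0.430 and 0.921 TPM, and its interval of −0.26 to 0.91 includes 0. The neural genes Nes and En2 were within 2-fold, at 10.6, 14.8 and 20.7 TPM and at 1.8, 0.324 and 1.54 TPM. Rax, of the eye field, was lower, at 1.34, 0.096 and 0.621 TPM. Summed over the list, neural genes made up 50.9, 127 and 112 TPM. Much of the DMSO day 4 sum came from 1 gene, the cadherin gene Cdh2, at 2.669, 73.65 and 8.435 TPM. The median for the vehicle day was 0.03, so the sums do not show that neural genes as a set were higher on DMSO day 4 than with C2 ceramide.

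Of 20 genes of differentiated neurons, 16 were within 2-fold, a share like the 80.5% of all members. In this list 3 were higher and 1, Elavl3, was lower. The median log2 ratio was 0.28. Tubb3, of neuronal microtubules, was at 6.93, 3.69 and 16.5 TPM (log2 ratio 1.25, interval 1.07 to 1.44), and Gap43, of growth cones, was at 12.1, 3.97 and 27.7 TPM. Both were highest with C2 ceramide and lowest on DMSO day 4. Tubb3 overlaps Galnt2l on the same strand, which had 42.9, 217 and 59.4 counts, so its share of reads is uncertain. Neurod1, a proneural factor, was at 1.03, 0.220 and 0.799 TPM, with an interval of −0.93 to 0.19 around a log2 ratio of −0.37. The proneural genes Neurog1 and Neurog2 did not reach 10 counts.

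Some genes of epithelia and many of the matrix were above day 3. Krt8, a keratin of simple epithelia, was at 126, 717 and 339 TPM, while its partner Krt18 was within 2-fold at 216, 552 and 393 TPM. In the list of surface ectoderm and keratins, 7 of 15 genes were higher and none was lower, at a median of 0.87. The vehicle day gave 8 higher genes and 1 lower gene and a median of 1.21. Epcam, an epithelial adhesion gene, had 12865, 10582 and 12855 counts, and Esrp1, an epithelial splicing factor gene, was at 16.7, 19.4 and 11.5 TPM. Of 21 genes of the extracellular matrix and its receptors, 9 were higher and none was lower, at a median of 0.80 against 0.66 on DMSO day 4. Col1a2, of fibrillar collagen, was at 0.381, 1.16 and 5.93 TPM (log2 ratio 3.96, interval 3.58 to 4.37), and Sparc, a matrix glycoprotein, was at 133, 158 and 306 TPM. Of 11 fibroblast markers, 6 were measured, of which 4 were higher and 1 was lower with C2 ceramide, at a median of 1.87. On DMSO day 4, 4 were higher and 2 were lower, at a median of 1.81. The summed level of these markers was 3.56, 3.72 and 14.0 TPM, while Postn, Lum, Fap, S100a4 and Twist2 did not reach 10 counts. Col1a1 and Col1a2 are in both the matrix list and the fibroblast list. The part of fibroblast-like cells in the matrix values was not tested.

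Of 20 measured genes of visceral and primitive endoderm, 12 were higher and 1 was lower with C2 ceramide, with a median of 1.12 against 1.51 on DMSO day 4. Ihh, the Indian hedgehog ligand gene, had 0, 5 and 64 counts. Apoe, a lipid carrier gene that pluripotent cells also express, was at 1948, 1471 and 2875 TPM and made up most of the summed level of the list. Germ cell genes were also partly higher, with 6 of 11 above 2-fold and none below. Dazl, an RNA-binding protein gene of germ cells, was at 1.52, 1.64 and 8.24 TPM and Dppa3, which is expressed in germ cells and in naive cells, was at 16.5, 28.8 and 52.8 TPM. In meiosis, 7 of 26 genes were higher and 3 were lower, beside 10.7% and 8.8% of all members.

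**Figure D4:**
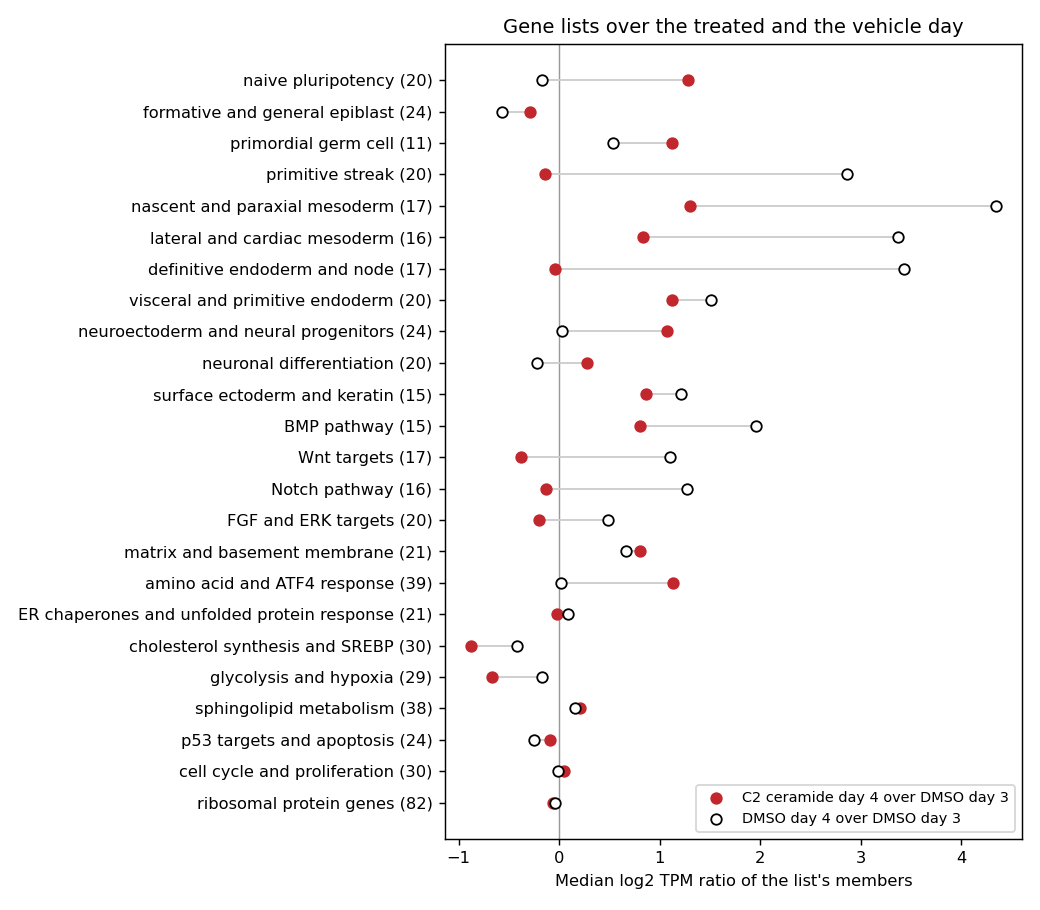
Median log2 TPM ratio of 24 gene lists (number of measured members in parentheses) for C2 ceramide day 4 over DMSO day 3 (filled) and DMSO day 4 over DMSO day 3 (open). Both series share the DMSO day 3 library. The filled points of the amino acid and naive lists lie at 1.13 and 1.28 with the open points near 0, and those of the primitive streak and definitive endoderm lie at −0.14 and −0.04 with the open points at 2.86 and 3.43, though the endoderm median is 0.10 by counts per library total.

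Of 38 measured genes of sphingolipid metabolism, 31 were within 2-fold, a share like the 80.5% of all members, while 3 were higher and 4 were lower. The calls of B4galt5 as higher and of Sgms2 as lower rested on TPM. Their log2 ratios by counts per library total were 0.48 and −0.17, within 2-fold. The median log2 TPM ratio of the 38 genes was 0.21, against 0.16 on DMSO day 4. Asah1, acid ceramidase, was at 64.2, 65.5 and 107 TPM (log2 ratio 0.73, interval 0.67 to 0.80). Smpd2, a neutral sphingomyelinase gene, was at 14.2, 19.1 and 26.1 TPM. Ugcg, which makes glucosylceramide, was at 18.9, 23.4 and 20.7 TPM, and Sptlc2, of the first step of synthesis, was at 55.5, 67.8 and 65.8 TPM. The higher genes included the receptor gene S1pr1 for sphingosine 1-phosphate, at 0.257, 0.621 and 1.17 TPM, and the lower ones the receptor gene S1pr3, at 0.622, 0.660 and 0.176 TPM. Of 27 genes of choline and glycerophospholipid metabolism, 1 was higher and 1 was lower, beside 10.7% and 8.8% of all members.

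Few growth genes passed 2-fold, which was also true of abundant genes at large. Among all genes with at least 10 TPM in the higher library, 2.22% were higher and 1.34% were lower. Among 30 genes of the cell cycle, 1 was higher, the inhibitor gene Cdkn1c at 17.3, 39.5 and 37.2 TPM, and none was lower. The 82 ribosomal protein genes had a median log2 ratio of −0.06, and none of the 13 protein-coding genes of the mitochondrial genome passed 2-fold.

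Several further genes stood at the ends of the ranking. On the higher side, Anxa1, a phospholipid-binding protein gene, was at 1.71, 4.78 and 14.1 TPM, Igf2, an imprinted growth factor gene, was at 2.52, 14.0 and 16.5 TPM, and Ly6a, which encodes Sca-1, was at 5.66, 6.75 and 38.5 TPM. On the lower side, Camk2b, a calcium-dependent kinase gene, was at 19.9, 4.71 and 3.96 TPM, and Ier3, an immediate early gene, was at 54.0, 34.5 and 13.6 TPM. Igf2 and Camk2b were at like levels in both day 4 libraries, and Ly6a was high with C2 ceramide alone.

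Some large ratios are uncertain. Exosc6 had 795, 1136 and 0 counts, but it overlaps Aars on the same strand, which had 16677, 15097 and 26859 counts, so the assignment of reads between them may differ by library. Zfp618 had 229, 390 and 262 counts, while its TPM of 34.3 with C2 ceramide rested on a 144-base transcript with 1 count and 31.4 TPM. Zfp950 had 129, 81 and 104 counts, and short transcripts carried much of its 13.6 TPM on DMSO day 3. Rn7sk, a small nuclear RNA that is not polyadenylated, was at 37.1, 32.7 and 172 TPM. Of the 3303 genes called higher or lower, 43 (1.30%) had a count ratio of the opposite sign.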

How the data were processed

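Total RNA from EBs was measured in 3 libraries of 1 sample each, from vehicle EBs on both days and from treated EBs on day 4. DNase I removed genomic DNA, and libraries came from the SMART-Seq v4 kit, which does not mark strand. The authors mapped the reads with DRAGEN to GRCm38, annotated by GENCODE M25, and deposited 1 table of genes and 1 of transcripts. The deposited values are TPM, which sum to the same total in each library, and estimated counts (expected counts), which can be fractional and carry no normalization. Each condition has 1 deposited library, and whether cultures were pooled for it is not given in the sources used here.

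TPM ratios were taken gene by gene (pandas 2.3.3, NumPy 2.4.6, Python 3.11.15), intervals came from SciPy 1.17.1 and plots from Matplotlib 3.10.9. Where TPM was 0, 0.001 was used. For intervals, the share of a gene's rounded counts that fell in 1 of the 2 libraries was given an exact 95% Clopper-Pearson interval, turned into a ratio and moved onto the TPM ratio. A gene with 0 counts in 1 library was compared with a floor of 3 counts. Where a symbol had several entries, the one with the most counts in the 2 libraries was used. The steps were tested on simulated data. No column of per-sample values was left without a sample.

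Genes named in the text were drawn from fixed sets, and not every gene of a set is named. The sets were genes that the paper discusses, 15 protein-coding genes at each end of the ratios, and 5 other genes at each end. Both ends were taken among genes with at least 10 TPM in the higher library. Of each of 43 lists, the sets held the 3 highest and 3 lowest ratios among members with at least 50 counts. The 2 members of each list with the highest TPM were added. Cell type markers were also named. Other genes were chosen after their values were seen: Atf4, Psat1, Mthfd2, Phgdh, Slc7a5, Egln1, Slc2a1, Slc16a3, Car9, Nr0b1, Klf4, D130058E05Rik, Mesp2, Cer1, Cdx1, Neurog1, Neurog2, Aars, Evx1os, Galnt2l, Vps51 and Shmt2. The members, the lists and 39 GO terms were chosen with earlier results of these data known. Alternatives were pseudocounts of 0.1 and 1 TPM, other filters and thresholds, counts per library total, and counts scaled by TMM factors (edgeR 4.0.16) or size factors (DESeq2 1.42.0) in R 4.3.3 from rounded expected counts. Neither tool was used for a test. Promoters came from RefSeq, GRCm38.p6, and coordinates of other genes are not given. A few genes are not reported here.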

Additional observations from a re-analysis of the deposited data

How the results depend on the processing

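With 1 library per condition, no replicate could be left out, and variation between cultures was not measured. No paired analysis was possible because each condition has 1 library, so that no replicate number is shared by several samples of a group. The filter was applied to DMSO day 3 and C2 ceramide day 4 for both comparisons. The following counts give, in turn, genes higher and lower with C2 ceramide and genes higher and lower on DMSO day 4, each against DMSO day 3, beside 1809, 1494, 1717 and 1666 as reported. A pseudocount of 1 TPM gave 403, 253, 598 and 280. At least 50 counts in 1 of the 2 libraries gave 831, 559, 853 and 674, at least 100 counts gave 584, 353, 575 and 455, and at least 10 counts in both gave 961, 722, 1093 and 1051. No filter gave 4165, 4235, 3244 and 4003. A threshold of 1.5-fold gave 3030, 2569, 2993 and 2705, and one of 4-fold gave 784, 618, 739 and 659. A counting interval past 2-fold gave 918, 677, 877 and 667. Fewer genes, or a higher bar, make these counts smaller by construction. The other 52 values of these counts, under CPM, TMM, DESeq2 size factors, a pseudocount of 0.1 TPM, other gene sets and a filter on 3 libraries, were within 1.5 times the reported ones. A pseudocount of 1 TPM moved the share of higher among called genes on DMSO day 4 from 50.8% to 68.1%. Scaling by TMM or DESeq2 size factors moved the median log2 ratio of all members by −0.03. No list median or named gene past 2-fold changed sign under the alternatives run. Medians nearer to 0 changed sign for definitive endoderm and node and for retinoic acid under CPM, TMM and DESeq2 scaling, and for the 2 two-cell-like genes under the 3 stricter filters. Among list counts, 141 moved by more than 1.5 times and 529 did not, and among values of named genes, 271 left their counting interval and 1299 did not. With a pseudocount of 1 TPM, the higher genes became 3 in nascent and paraxial mesoderm, 1 in lateral and cardiac mesoderm, 3 in definitive endoderm and node, 1 in visceral endoderm, 5 in the primitive streak and 6 in neuroectoderm. The counts of higher amino acid genes (18 to 20), higher naive genes (10 or 11), lower cholesterol genes (13 or 14) and lower glycolysis and hypoxia genes (10 to 12) changed little.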

Other observations

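The gene table annotates 97 members to homophilic cell adhesion, of which 29 were higher and 11 were lower with C2 ceramide than on DMSO day 3, with a median log2 ratio of 0.38, and 29 were higher and 15 were lower on DMSO day 4. Of 259 members annotated to G protein-coupled receptor signaling, 51 were higher and 55 were lower. For comparison, 10.7% of all members were higher and 8.8% were lower. Many genes of these terms have low levels, and the part of counting error in these shares was not tested.

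Among 53 replication-dependent histone genes, 6 were higher and 1 was lower with C2 ceramide, and they summed to 9316 TPM with C2 ceramide, against 7442 TPM on DMSO day 3 and 8055 TPM a day later. Transcripts of these histone genes lack a poly(A) tail, as does Rn7sk, which was at 37.1, 32.7 and 172 TPM in the order of the report, and the part of RNA capture in the histone values was not tested. Of 1110 processed pseudogenes, 48 (4.32%) were higher and 133 (12.0%) were lower with C2 ceramide. Of 14350 protein-coding genes, 1461 (10.2%) were higher and 1057 (7.37%) were lower. Reads from a pseudogene and its parent gene can be hard to tell apart, and the part of that in these counts was not tested.

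Of 23 imprinted genes, 5 were higher and 1 was lower with C2 ceramide, and 9 were higher and 1 was lower on DMSO day 4. With C2 ceramide, 10.7% of all members were higher and 8.8% were lower. Mest, of the mesoderm, was at 27.6, 167 and 73.8 TPM in the order of the report, and Peg3, a zinc finger gene, was at 5.36, 45.4 and 13.6 TPM.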
